A study of Homo sapiens with 8 samples.

Results

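The genes described here are 8 transcription regulators associated with changes of cell lineage in prostate cancer: TRPS1, SOX2, SOX4, SOX9, GATA3, KLF5, MYB and REST. They were taken by exact gene symbol from 3 deposited expression tables, and are 8 of the 16126 genes listed in any of them. All 8 stood in the CWR-R1 table and in the VCaP table. The C4-2B table listed 6 of them, with no entry for SOX2 or GATA3, so 6 could be followed through all 8 libraries. The genes were chosen on their levels in these 8 libraries and on the differences between resistant and sensitive lines described below, so every resistant-to-sensitive difference of the 8 genes is a description and carries no p-value. The related gene lists counted beside them were also chosen with earlier results known, so calls in those lists are descriptions too.

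RNA was sequenced from prostate cancer cell lines that resist enzalutamide (ENZR), an antiandrogen drug, and from the enzalutamide-sensitive lines they are set against. C4-2BENZR cells and C4-2B cells, which descend from LNCaP and grow without androgen, gave 2 libraries each, and both groups carried a luciferase and GFP transgene. CWR-R1ENZR and CWR-R1, from a relapsed xenograft, gave 1 library each, as did VCaPENZR and VCaP, from a vertebral metastasis with a fusion of TMPRSS2 to ERG. Each resistant group is a single line, and the labels do not say how it was derived or whether the drug was in the medium at harvest. The C4-2B libraries are labelled biological replicates of 1 line, so their spread does not cover differences between independently derived resistant lines.

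Luminal prostate cells are kept in their state by androgen signalling together with factors such as FOXA1 and HOXB13. When tumours escape antiandrogen drugs, some cells lose part of that program and take on basal, stem-like or neuronal features, a shift called lineage plasticity. The 8 genes sit on different sides of it: SOX proteins and KLF5 are activators linked to stem, basal or progenitor states, TRPS1 and REST are repressors that keep gene programs silent, GATA3 is a luminal activator, and MYB drives the growth of progenitor cells.

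Levels are reads scaled by library size, as the authors deposited them, and come close to CPM values, shares of the library on a uniform scale. The libraries held 14503586 to 20248655 reads in listed genes. The 3 tables were normalized separately and shared 12868 genes. Between replicates the correlation of log2 levels was 0.995 in C4-2BENZR and 0.994 in C4-2B. The prostate markers FOXA1, KRT8, KRT18 and CDH1 were present in all libraries. KLK3, the gene of prostate-specific antigen, was listed at 0 in CWR-R1ENZR against 1.96 in CWR-R1. The reads cannot tell fewer cells of one kind from less RNA in each cell. Of other cell types, PECAM1 and PTPRC, which define endothelium and blood, were listed in no table. Summed fibroblast markers came to 54.9 and 50.6 in C4-2BENZR against 17.7 and 13.4 in C4-2B, where 3 of 8 were listed and most of the sum was COL1A1. The other tables listed 2 of 8, with sums of 66.4 in CWR-R1ENZR against 33.8 in CWR-R1 and 17.3 in the library labelled VCaPENZR against 29.5 in VCaP. There COL1A1 and LUM went opposite ways, COL1A1 at 63.6 in CWR-R1ENZR against 22.2 in CWR-R1 and 17.0 in the library labelled VCaPENZR against 8.25 in VCaP, and LUM at 2.81 against 11.6 and 0.238 against 21.2 in the same pairs. The endothelial sum, mostly VWF, was 4.77 and 4.98 in C4-2BENZR against 8.41 and 7.61 in C4-2B, 27.5 in CWR-R1ENZR against 5.73 in CWR-R1, and 18.6 in the library labelled VCaPENZR against 3.13 in VCaP. The blood cell sum was 10.1 and 12.6 in C4-2BENZR against 15.9 and 18.2 in C4-2B, 6.70 in CWR-R1ENZR against 4.99 in CWR-R1, and 13.2 in the library labelled VCaPENZR against 12.4 in VCaP, where CD68, a macrophage marker, was 9.82 against 0.512. Their part in the results was not tested.

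The library labelled VCaPENZR did not match the line in its name. ERG, which the fusion drives in VCaP, had 0.179 (3 reads) in the library labelled VCaPENZR against 428 in VCaP. Across the 12868 shared genes its log2 levels correlated at 0.940 with CWR-R1ENZR, 0.890 with CWR-R1 and 0.727 with VCaP. On a scale common to the 3 tables, all 8 lay within 2-fold of their level in CWR-R1ENZR, the widest gap being 0.86 on the log2 scale, for SOX9. Only 2 of 8 lay within 2-fold of CWR-R1 (KLF5 and REST) and 2 of 8 within 2-fold of VCaP (SOX9 and MYB). Over all expressed genes the shares within 2-fold were 87.5%, 82.5% and 60.1%. The 8 genes were chosen on their levels in these libraries, so their likeness is a description only. Because of the ERG level and the correlations over shared genes, values from the VCaP table are given as the library labelled VCaPENZR against VCaP. Counts over tables are given with and without that table, an alternative chosen after seeing the data.

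**Figure D1:**
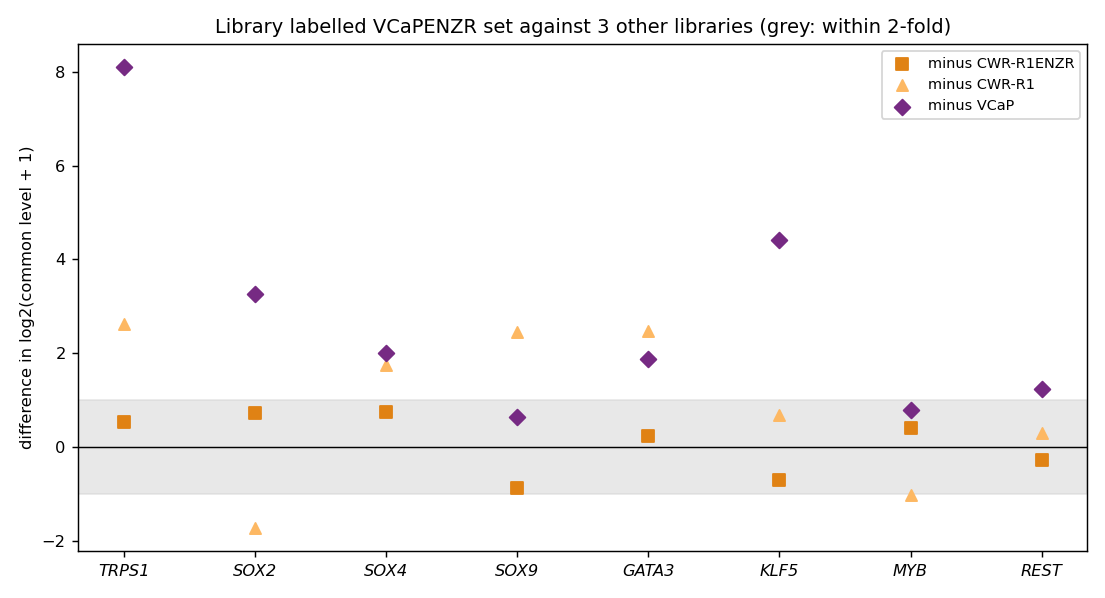
Difference in log2(level + 1) on the common scale between the library labelled VCaPENZR and each of CWR-R1ENZR, CWR-R1 and VCaP (y axis), for the 8 genes (x axis), 1 library each; the grey band is within 2-fold. All 8 squares, for CWR-R1ENZR, lie in the band, and the diamond of TRPS1, for VCaP, lies at 8.10.

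Of the 8 genes, 6 had entries among the RefSeq promoter sequences of GRCh38.p14. The 250 bases before the start of transcription are shown for SOX4, KLF5 and MYB because SOX4 and KLF5 were higher and MYB lower in C4-2BENZR than in C4-2B, and their promoters differ in composition. All are on the plus strand. Capitals mark short motifs of the DNA-binding families that the 8 genes belong to, searched on both strands: ACAAT and the longer variant ACAAAG for SOX proteins, then GATAA for GATA proteins, GGGCGG as well as CACCC for KLF proteins and related zinc fingers, AACNG for MYB, and, as parts of the RE1 element bound by REST, the strings CAGCACC on one side and GGACAG on the other. No matches overlapped in these windows.
SOX4, chr6:21593501-21593750: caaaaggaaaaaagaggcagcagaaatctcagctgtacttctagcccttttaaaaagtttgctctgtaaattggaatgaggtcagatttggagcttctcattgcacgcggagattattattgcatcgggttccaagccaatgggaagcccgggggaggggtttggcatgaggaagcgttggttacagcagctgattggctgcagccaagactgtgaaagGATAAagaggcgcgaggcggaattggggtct
KLF5 upstream start, chr13:73054726-73054975: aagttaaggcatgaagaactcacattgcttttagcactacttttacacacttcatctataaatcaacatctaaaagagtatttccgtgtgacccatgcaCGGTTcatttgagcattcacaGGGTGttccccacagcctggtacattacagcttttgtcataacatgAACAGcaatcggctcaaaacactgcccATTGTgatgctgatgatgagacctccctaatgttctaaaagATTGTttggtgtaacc
KLF5 downstream start, chr13:73058755-73059004: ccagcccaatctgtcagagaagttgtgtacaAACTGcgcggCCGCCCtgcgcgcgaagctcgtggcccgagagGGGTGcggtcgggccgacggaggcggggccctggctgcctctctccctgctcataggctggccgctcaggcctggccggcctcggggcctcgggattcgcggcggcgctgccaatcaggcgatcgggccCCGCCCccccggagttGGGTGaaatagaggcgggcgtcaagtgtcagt
MYB, chr6:135181058-135181307: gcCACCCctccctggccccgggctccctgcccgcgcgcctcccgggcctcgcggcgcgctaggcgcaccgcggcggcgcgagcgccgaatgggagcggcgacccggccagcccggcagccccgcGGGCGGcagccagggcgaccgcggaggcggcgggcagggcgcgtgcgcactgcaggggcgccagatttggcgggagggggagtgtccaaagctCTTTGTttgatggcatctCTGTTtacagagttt

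The 2 KLF5 windows were unlike each other: the upstream one was 40.8% G and C with 2 ACAAT, 1 CACCC and 2 AACNG matches, and the downstream one 70.8% with 2 GGGCGG, 2 CACCC and 1 AACNG. The SOX4 window was 48.8% G and C and held 1 GATAA. The MYB window was 75.6% G and C, with 1 match of the SOX variant ACAAAG, 1 of GGGCGG, 1 of CACCC and 1 of AACNG. Among all 35116 promoter windows of this length the median was 58.0% G and C. Most of the motifs are common. ACAAT was found in 24.6% of the windows and the variant ACAAAG was found in 13.7%. The share was 20.4% for the motif GATAA, 42.6% for the motif GGGCGG, 54.7% for the motif CACCC and 70.6% for the motif AACNG. Of the RE1 parts, CAGCACC was present in 6.16% of windows, whereas GGACAG was present in 17.2%. A match is a description of the letters and not a binding site. The tables do not separate transcripts by start, so the share of KLF5 reads from each start is not known.

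In C4-2B cells, 4 of the 6 listed genes were called higher in the resistant line (TRPS1, SOX4, SOX9 and KLF5), 1 was called lower (MYB), and REST was not called. A call is an adjusted p below 0.05 with limma over 13280 tested genes. At that threshold 56.8% of all genes were called, 27.8% higher and 29.0% lower, and 9.92% were both called and at least 2-fold apart. The contrast helped to choose the genes, so these calls are a description and nothing is read from them or their count. The resistant and sensitive libraries did not overlap for any of the 6. The share of all genes without overlap was not counted, so nothing is read from this either. The next counts take a call in C4-2B and any log2 difference of the same sign in the other tables. They rest on differences on which the genes were chosen, so they too are a description and nothing is read from them. Without the VCaP table, TRPS1, SOX4, SOX9 and KLF5 were higher in both C4-2BENZR and CWR-R1ENZR, as were 15.1% of the 11667 genes measured in both. MYB was lower in both C4-2BENZR and CWR-R1ENZR, as were 17.3%. The library labelled VCaPENZR did not match VCaP and correlated most with CWR-R1ENZR, so the VCaP table adds no independent, matched pair. With the VCaP table, the same 4 genes were higher in all 3, as were 8.71% of 11208 genes. With at least 2-fold required in both other tables the share was 1.29%, with TRPS1 and KLF5 but not SOX4 or SOX9.

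In CWR-R1ENZR, 4 of the 8 genes were at least 2-fold higher than in CWR-R1 (TRPS1, SOX9, GATA3 and KLF5) and 2 were lower (SOX2 and MYB). Of 12462 genes compared there, 20.1% differed by at least 2-fold, 9.79% higher and 10.3% lower. The library labelled VCaPENZR had 6 of the 8 at least 2-fold higher than VCaP (all but SOX9 and MYB) and none lower, and of 12502 genes 43.1% differed by that much, 21.1% higher and 22.0% lower. These tables hold 1 library per group, so the differences have no replicate check. Genes were compared where either library reached 5. GATA3 did so only in the libraries labelled resistant, at 5.03 and 5.48, and with a pseudocount of 5 neither difference reached 2-fold. In the VCaP table TRPS1, SOX2, KLF5 and MYB also reached 5 only in the library labelled VCaPENZR. Later counts of calls in C4-2B and of 2-fold differences in these tables stand against the shares given here for all genes.

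**Figure D2:**
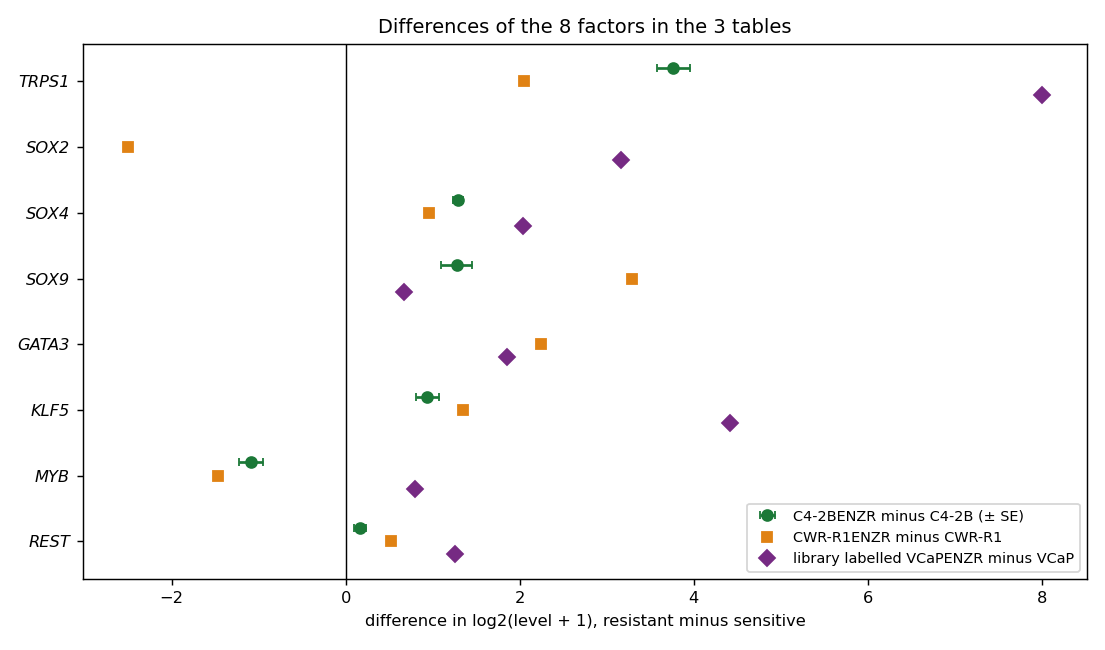
Log2 difference, resistant minus sensitive, of log2(level + 1) for each gene in the 3 tables: C4-2BENZR against C4-2B (bars are the standard error, 2 libraries each), CWR-R1ENZR against CWR-R1 and the library labelled VCaPENZR against VCaP (1 library each, no replicate check). TRPS1, SOX4, SOX9, KLF5 and REST lie to the right of 0 in every table, and SOX2 and MYB change side between the CWR-R1 and VCaP tables.

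TRPS1, a zinc finger repressor that binds GATA motifs, had the largest difference of the 6 genes in C4-2B. It had 35.0 and 28.0 in the C4-2BENZR libraries, against 0.980 (19 reads) and 1.86 (36 reads) in the C4-2B libraries. Both resistant libraries lay far above both sensitive ones, with a 22.2-fold difference of means and 3.76 ± 0.19 (SE) on the log2(level + 1) scale. A pseudocount of 5 in place of 1 brought that to 2.50. TRPS1 was 219 in CWR-R1ENZR against 51.9 in CWR-R1, 4.21-fold higher (95% interval 3.89 to 4.56). It was 284 in the library labelled VCaPENZR, against 0.114 in VCaP. That VCaP value stands for 2 reads, and the ratio of 2493 has an interval of 689.7 to 20591. Intervals of ratios between single libraries are exact binomial and cover counting error only.

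On a common scale over the genes shared by the tables, TRPS1 was highest in the library labelled VCaPENZR (308), then in CWR-R1ENZR (212), CWR-R1 (48.9), C4-2BENZR (31.8), C4-2B (1.41) and VCaP (0.125), and no neighbours in this order had overlapping intervals. Sensitive CWR-R1 therefore held more TRPS1 than resistant C4-2B. These Poisson intervals cover counting error only. Between replicates the scatter, as chi-square per gene, was 3.99 in C4-2BENZR and 5.67 in C4-2B, where counting error alone gives about 1. Intervals that lie apart, here and below, therefore do not show a difference beyond the spread between libraries. The genes beside TRPS1 differed little or in the other direction in C4-2B. Of its 10 nearest listed protein-coding neighbours on chromosome 8, 8 could be tested in C4-2B. The 1 called higher was EIF3H, a translation initiation subunit, at 0.18 on the log2 scale. The 2 called lower were RAD21, a cohesin subunit, at -0.16, and SYBU, a kinesin adaptor, at -1.10. Over all genes 27.8% were called higher and 29.0% lower. In CWR-R1ENZR none of the 8 with a value was at least 2-fold from CWR-R1. In the library labelled VCaPENZR 1 of 7 was at least 2-fold higher than in VCaP, SYBU by 1.40, and 1 lower, UTP23 at -1.06.

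The 3 SOX genes, activators of the HMG-box family, did not all differ in 1 direction. SOX4, a progenitor factor expressed in many carcinomas, had 295 and 306 in C4-2BENZR, against 123 and 121 in C4-2B. Its replicates were tight, and the difference was 2.46-fold, or 1.29 ± 0.05 on the log2 scale. It was 362 in CWR-R1ENZR against 186 in CWR-R1, 1.95-fold higher (1.86 to 2.04), and 542 in the library labelled VCaPENZR against 132 in VCaP, 4.12-fold higher (3.93 to 4.31). The CWR-R1 difference fell just short of 2-fold at 0.96 on the log2 scale and passed it, at 1.04, when libraries were scaled by total reads alone.

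SOX9, which in mouse is needed for prostate buds to form and marks progenitor cells, was 11.7 and 13.0 in C4-2BENZR, against 3.77 and 5.38 in C4-2B. The groups lay apart at low levels, 2.70-fold, with a log2 difference of 1.27 ± 0.18. SOX9 was 176 in CWR-R1ENZR against 17.1 in CWR-R1, 10.3-fold higher (9.05 to 11.8), and CWR-R1ENZR held the most SOX9 of all libraries. It was 86.0 in the library labelled VCaPENZR against 53.6 in VCaP, 1.60-fold higher (1.48 to 1.74). The order on the common scale was CWR-R1ENZR (170.1), the library labelled VCaPENZR (93.2), VCaP (59.0), CWR-R1 (16.1), C4-2BENZR (12.4) and C4-2B (4.55), with overlapping intervals only for CWR-R1 and C4-2BENZR.

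SOX2, a pluripotency factor also needed in neural progenitors, went opposite ways in the 2 tables that list it. It was 5.63 (84 reads) in CWR-R1ENZR against 36.5 (541 reads) in CWR-R1, 6.48-fold lower (5.14 to 8.26). It was 8.99 (151 reads) in the library labelled VCaPENZR, against 0.114 (2 reads) in VCaP, a ratio of 79.0 (21.5 to 658.0). Of the 4 libraries with a value, sensitive CWR-R1 held the most SOX2 and VCaP almost none. On the common scale the library labelled VCaPENZR (9.75) lay nearer to CWR-R1ENZR (5.45) than to CWR-R1 (34.4) or VCaP (0.125), and none of the intervals overlapped. SOX2 lies within an intron of the noncoding gene SOX2-OT, and the tables do not say whether reads were counted by strand.

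Of the 16 other SOX genes, 6 were tested in C4-2B, with a median log2 difference of -0.01 against -0.00075 over all genes. None was called higher (1 with scaling by total reads) and 1 was called lower. The gene called lower was SOX8, a SOX9 relative, at 0.614 and 0 in C4-2BENZR against 8.46 and 7.04 in C4-2B. It was not called by DESeq2 and failed the filter on low levels when either C4-2B replicate was left out. In CWR-R1ENZR, 2 of 7 were at least 2-fold higher, SOX8 (16.2 against 4.52 in CWR-R1) and the neural factor SOX11 (23.7 against 8.43), and 1 was lower, SOX5 (1.94 against 7.89). In the library labelled VCaPENZR 4 of 7 were higher and 1 lower, with SOX21 (24.5 against 0.0569 in VCaP) and SOX11 (12.9 against 0.342) among the higher and SOX7 the lower (0.298 against 5.58).

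GATA3, which maintains luminal identity in breast, was measured in the same 2 tables and stayed low throughout. It was 5.03 (75 reads) in CWR-R1ENZR against 0.270 (4 reads) in CWR-R1, 18.6-fold higher (6.98 to 70.1). It was 5.48 (92 reads) in the library labelled VCaPENZR against 0.797 (14 reads) in VCaP, 6.87-fold higher (3.90 to 13.1). With a pseudocount of 5 neither difference reached 2-fold, at 0.93 and 0.85 on the log2 scale. Of the other GATA genes 3 were tested in C4-2B, with none called higher and 1 lower. The count called higher was 1 without C4-2B replicate 2, with scaling by total reads or with no filter on low levels. The gene called lower, GATA2, a GATA factor of luminal prostate cells, was at 257 and 256 in C4-2BENZR against 295 and 287 in C4-2B. The log2 difference was -0.18 ± 0.05, and the call was lost when libraries were scaled by total reads alone. GATA2 was 296 in CWR-R1ENZR against 276 in CWR-R1. In the library labelled VCaPENZR it was 143 against 765 in VCaP.

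KLF5, a Krüppel-like activator of epithelial progenitor and basal genes, had 23.8 and 27.4 in C4-2BENZR, against 11.7 and 14.1 in C4-2B. Both resistant libraries were above both sensitive ones, by 1.98-fold, or 0.94 ± 0.13 on the log2 scale. KLF5 was 220.0 in CWR-R1ENZR against 85.7 in CWR-R1, 2.57-fold higher (2.41 to 2.74). It was 121 in the library labelled VCaPENZR, against 4.72 (83 reads) in VCaP, 25.6-fold higher (20.5 to 32.3). All 6 counting intervals were apart on the common scale. The order was CWR-R1ENZR (213), the library labelled VCaPENZR (131), CWR-R1 (80.7), C4-2BENZR (25.8), C4-2B (12.8) and VCaP (5.20).

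The other KLF genes had no common direction in C4-2B. Of 11 tested, 3 rose and 5 fell in C4-2BENZR, with a median log2 difference of -0.18. Those that rose were KLF10 (36.8 and 36.8 against 27.2 and 23.3 in C4-2B), KLF13 (73.6 and 71.6 against 56.6 and 54.0) and KLF11 (32.6 and 31.8 against 25.8 and 27.4). The call of KLF11 was lost with DESeq2 and without C4-2BENZR replicate 1 or 2 or C4-2B replicate 1. KLF2 (2.27 and 2.14 against 5.52 and 4.35) and KLF6 (7.99 and 11.2 against 15.9 and 15.1), both linked to restraint of cell growth, were among those that fell. In CWR-R1ENZR 2 of 12 were at least 2-fold higher and none lower, KLF4 (64.7 against 22.9 in CWR-R1) and KLF10 (129.6 against 53.0). Among 10 in the VCaP table, 4 were at least 2-fold higher in the library labelled VCaPENZR, KLF9 at 248 against 52.5 in VCaP and KLF6 at 48.7 against 19.6.

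MYB, a proto-oncogene that maintains proliferating progenitors, was the gene lower in resistant C4-2B cells. It had 12.4 and 9.67 in C4-2BENZR, against 25.2 and 23.8 in C4-2B. The groups did not overlap, and the difference was 2.22-fold, or -1.09 ± 0.14 on the log2 scale. MYB was 5.23 (78 reads) in CWR-R1ENZR against 16.3 (241 reads) in CWR-R1, 3.11-fold lower (2.40 to 4.07). It was 6.49 (109 reads) in the library labelled VCaPENZR against 3.30 (58 reads) in VCaP, 1.97-fold higher (1.42 to 2.75). VCaP had the lowest MYB of the sensitive lines, and on the common scale C4-2B stood at the top with 24.3. The intervals of each further pair of neighbours overlapped, from CWR-R1 (15.3) through C4-2BENZR (11.1), the library labelled VCaPENZR (7.04) and CWR-R1ENZR (5.06) to VCaP (3.63).

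MYB's relatives and the MuvB complex, with which MYBL2 and FOXM1 switch on genes of mitosis, gave no common direction. Of 8 tested in C4-2B, 2 rose in C4-2BENZR and 1 fell. MYBL2 was 340 and 361 in C4-2BENZR against 289 and 282 in C4-2B, and FOXM1 252 and 283 against 332 and 329. In CWR-R1ENZR 3 of 8 were at least 2-fold lower and none higher, among them MYBL1 (10.5 against 35.7 in CWR-R1) and FOXM1 (122 against 315). In the library labelled VCaPENZR 4 of 8 were higher, MYBL1 at 13.3 against 1.88 in VCaP and LIN52, a MuvB subunit, at 16.1 against 6.09. Beside MYB on chromosome 6, 4 of 9 tested neighbours rose in C4-2BENZR and 2 fell. Over all genes 27.8% were called higher and 29.0% lower. SGK1, a kinase gene induced by steroid hormones, rose by 2.79 on the log2 scale, and SLC2A12, a glucose transporter gene, and HBS1L, a ribosome rescue factor, were at -0.48 and -0.41.

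REST, the repressor that silences neuronal genes outside the nervous system, had the smallest difference of the listed genes in C4-2B and CWR-R1. It had 69.4 and 71.2 in C4-2BENZR, against 66.0 and 59.5 in C4-2B. The groups did not overlap, and the difference was 1.12-fold, or 0.16 ± 0.07 on the log2 scale. It was 0.26 with scaling by total reads, 0.24 without C4-2B replicate 1 and 0.09 without C4-2B replicate 2. REST was 125 in CWR-R1ENZR against 87.1 in CWR-R1, 1.44-fold higher (1.34 to 1.55), and 93.0 in the library labelled VCaPENZR against 38.3 in VCaP, 2.43-fold higher (2.22 to 2.67). No library lacked REST: on the common scale the groups ran from 42.1 in VCaP to 121 in CWR-R1ENZR, and only C4-2BENZR (70.8) and C4-2B (62.4) had overlapping intervals.

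**Figure D3:**
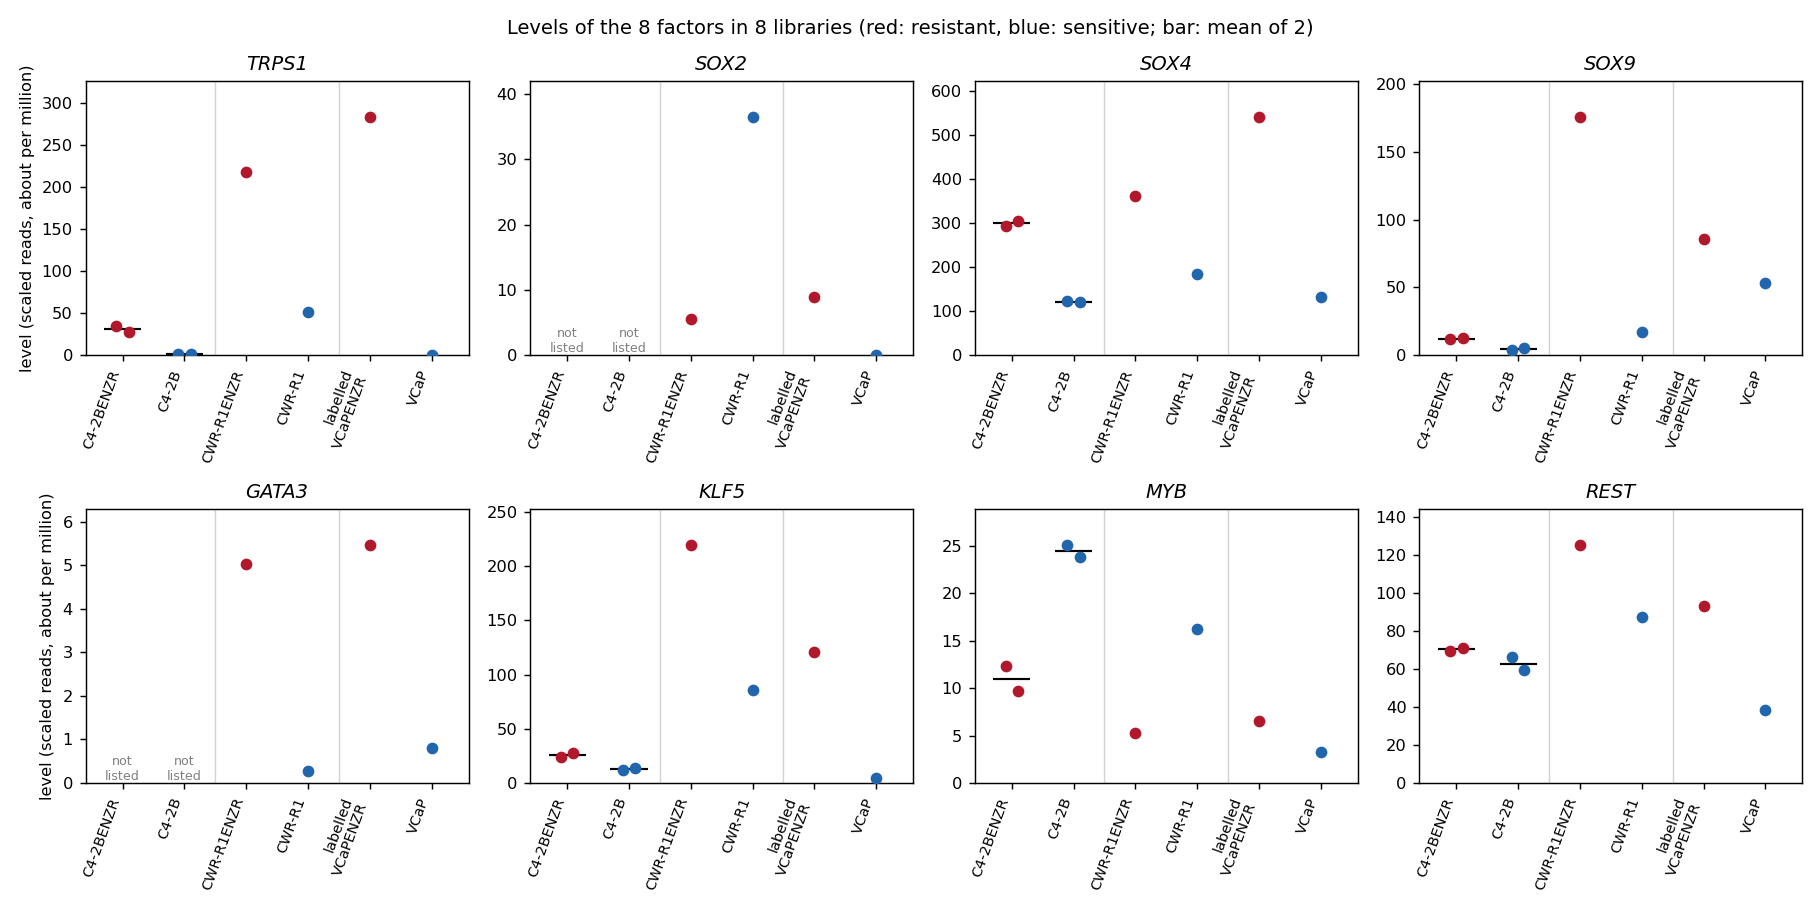
Deposited level (scaled reads, close to CPM, y axis from 0, a scale for each gene) in every library. Each group labelled resistant (red) is left of the sensitive line of the same table (blue). The library labelled VCaPENZR, which did not match the line in its name, is set beside VCaP. Points are libraries and black bars the mean of 2; SOX2 and GATA3 are not listed in the C4-2B table. The red points lie above the blue ones of the same table for TRPS1, SOX4, SOX9, KLF5 and REST. TRPS1 is at 284 in the library labelled VCaPENZR against 0.114 in VCaP.

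The proteins REST works with were counted as a list of 19 corepressor genes. In C4-2B 18 were tested, of which 7 rose and 4 fell in C4-2BENZR, with a median log2 difference of 0.03. RCOR2, a CoREST scaffold, was 3.40 and 2.43 in C4-2BENZR against 0.0516 and 0.828 in C4-2B, a call lost with DESeq2. KDM1A, the CoREST demethylase, was 162 and 172 against 118 and 121, and BTRC, a ubiquitin ligase subunit that targets REST for degradation, 20.0 and 20.3 against 14.4 and 12.2. The phosphatases CTDSPL (55.7 and 53.0 against 84.2 and 89.5) and CTDSP1 (74.8 and 71.6 against 99.1 and 93.6), of a family recruited by REST, and the methyltransferase EHMT1 (98.3 and 89.8 against 125 and 118) fell. CTDSPL was also lower in CWR-R1ENZR, at 26.3 against 85.5 in CWR-R1, and in the library labelled VCaPENZR, at 31.4 against 239.5 in VCaP. In all, 2 of 18 were at least 2-fold lower and none higher in CWR-R1ENZR, and 1 of 19 was higher and 5 lower in the library labelled VCaPENZR. SRRM4, a splicing factor that produces a truncated REST, was listed in the VCaP table alone, at 0.179 in the library labelled VCaPENZR against 5.46 in VCaP.

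Of 15 neuronal genes known as REST targets and tested in C4-2B, 4 rose and 4 fell in C4-2BENZR, with a median log2 difference of -0.01. Both shares were close to those over all genes, 27.8% higher and 29.0% lower, so the counts do not set the list apart. SYT4, a vesicle protein of neurons, was 381 and 381 in C4-2BENZR against 5.36 and 5.28 in C4-2B. BEX1, a neuronal adaptor whose reads may be shared with its close copy BEX2, was 30.6 and 36.6 against 0.0516 and 0. The receptor subunit GRIN1 (0.992 and 1.27 against 5.05 and 4.71), the scaffold MAPK8IP2 (27.6 and 30.7 against 87.9 and 75.5) and the secreted VGF (8.27 and 8.92 against 19.8 and 19.4) fell. The count of 4 that rose was 1 without C4-2BENZR replicate 1 and 2 without replicate 2, where BEX1 no longer passed the filter on low levels.

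In CWR-R1ENZR 6 of 20 genes of the list were at least 2-fold higher, among them BEX1 (7.17 against 0.337 in CWR-R1) and SYN1, a synaptic vesicle protein (12.7 against 1.28), and 3 were lower, among them SYT4 (8.38 against 126) and the potassium channel KCNH2 (33.0 against 158). In the library labelled VCaPENZR 6 of 28 were higher and 20 lower, with a median of -2.32 against 0.00478 over all genes. The neurofilament gene INA was listed at 0 there against 176 in VCaP, and CHRNB2, a nicotinic receptor subunit, at 0 against 139.7. SYT4 therefore stood on opposite sides in C4-2BENZR and CWR-R1ENZR, and whether these differences themselves differ was not tested.

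TRPS1 is known to recruit the NuRD and CtBP corepressors. Of 15 such genes tested in C4-2B, 5 rose and 3 fell in C4-2BENZR, with a median of 0.03, and 8 rose when libraries were scaled by total reads alone. The remodelling subunits CHD4 (389 and 401 in C4-2BENZR against 298 and 273 in C4-2B) and CHD3 (369 and 349.8 against 304 and 269.7) rose, and MBD3 (120.4 against 184 on average) and GATAD2A (155 against 214) fell. In CWR-R1ENZR none of 16 was at least 2-fold from CWR-R1. In the library labelled VCaPENZR 1 was higher, GATAD2A at 210.1 against 80.6 in VCaP, and 3 were lower, among them CHD3 at 89.8 against 324 and MBD3 at 58.7 against 174.

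**Figure D4:**
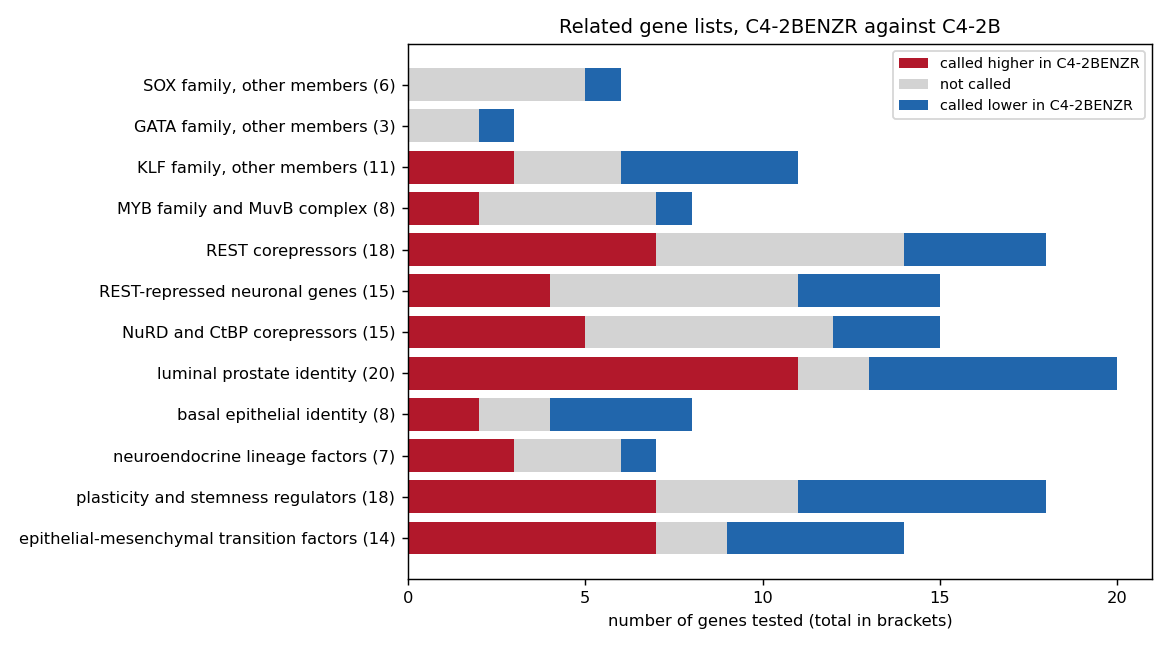
Number of tested genes (x axis) called higher (red), not called (grey) or called lower (blue) in C4-2BENZR against C4-2B in each gene list related to the 8 factors (y axis, number tested in brackets). Luminal genes have 11 higher and 7 lower of 20, and the other SOX genes 0 higher and 1 lower of 6.

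Lineage programs were counted beside the factors, and each count in C4-2B stands against 27.8% of all genes called higher and 29.0% lower. Among luminal genes, 11 of 20 rose and 7 fell in C4-2BENZR, with a median of 0.24. KLK3 was 49.2 and 48.1 in C4-2BENZR against 2067 and 2024 in C4-2B. Its neighbour KLK2, another androgen-driven kallikrein, was instead 211 and 225 against 107 and 109. The surface protein CD24 (23.4 and 26.9 against 3.09 and 2.38) and the stress-response gene NDRG1 (245 and 267 against 60.0 and 77.5) rose too, and DPP4, a surface peptidase, fell (55.6 and 62.2 against 150.2 and 158). In CWR-R1ENZR 2 of 17 luminal genes were at least 2-fold higher and 6 lower, among them KLK4 (5.16 against 154 in CWR-R1) and DPP4 (listed at 0 against 16.7). In the library labelled VCaPENZR 2 of 19 were higher and 15 lower.

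Basal genes, 8 tested in C4-2B, had 2 that rose and 4 that fell in C4-2BENZR, the laminin chain LAMA3 most (102 and 92.5 against 244 and 225 in C4-2B). The 2 that rose were LAMB3 (1.84 and 2.14 against 0.361 and 0.621) and the integrin ITGA3 (15.8 and 13.5 against 8.25 and 11.0); none of the list was called higher without C4-2BENZR replicate 1, and 1 was without C4-2BENZR replicate 2 or C4-2B replicate 1. LAMB3 was 115 in CWR-R1ENZR against 0.472 in CWR-R1, and the basal keratin KRT15 was 20.6 against 0. Both were also higher in the library labelled VCaPENZR, LAMB3 at 44.6 against 1.48 in VCaP and KRT15 at 19.2 against 0.512. In CWR-R1ENZR 3 of 9 basal genes were at least 2-fold higher and 1 lower, and in the library labelled VCaPENZR 4 of 13 were higher and 7 lower.

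Neuroendocrine lineage factors rose in 3 of 7 tested in C4-2B and fell in 1. ONECUT2, a homeodomain driver of that lineage, was 30.2 and 28.1 in C4-2BENZR against 21.0 and 15.1 in C4-2B, and MYCL, a MYC relative, 18.2 and 17.3 against 12.3 and 13.0. HES6, a bHLH regulator of neuronal differentiation, was 48.4 and 52.8 against 99.9 and 89.9. In CWR-R1ENZR POU3F2, a neural POU factor, was 1.88 against 16.7 in CWR-R1 and HES6 26.5 against 66.4, while NKX2-1 was 7.30 against 2.97. In all, 1 of 8 was at least 2-fold higher there and 3 lower, and in the library labelled VCaPENZR 4 of 10 were higher and 4 lower.

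Other plasticity and stemness regulators were evenly divided in C4-2B, with 7 of 18 higher and 7 lower and a median of -0.02. LIFR, a cytokine receptor upstream of JAK and STAT signals, was 61.9 and 55.1 in C4-2BENZR against 29.9 and 29.3 in C4-2B. POU5F1, a pluripotency factor with near-identical pseudogenes, was 5.72 and 4.98 against 1.60 and 2.12. BMI1, a polycomb subunit, and RB1, the retinoblastoma tumour suppressor, fell, BMI1 to 51.1 and 54.7 in C4-2BENZR against 82.3 and 89.6 in C4-2B and RB1 to 44.3 and 43.1 against 72.5 and 66.8. The count that rose was 4 without C4-2BENZR replicate 2, and the count that fell was 4 with scaling by total reads. In CWR-R1ENZR 2 of 18 were at least 2-fold higher and 5 lower, and in the library labelled VCaPENZR 1 of 19 and 7; ALDH1A1, a stem cell enzyme, was 19.6 in CWR-R1ENZR against 167 in CWR-R1 and 3.22 in the library labelled VCaPENZR against 86.8 in VCaP.

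Of 14 genes of the epithelial-mesenchymal transition tested in C4-2B, 7 rose and 5 fell. The mesenchymal filament VIM was 56.1 and 59.1 in C4-2BENZR against 13.3 and 14.1 in C4-2B, fibronectin FN1 973 and 890.2 against 224 and 211, and SNAI2, a repressor of epithelial genes, 8.22 and 9.67 against 2.42 and 2.69. Regulators of the epithelial state stood on both sides. GRHL2 was 320 and 317 in C4-2BENZR against 249 and 250 in C4-2B and ELF3, an epithelial ETS factor, 27.9 and 30.1 against 18.1 and 15.9, both higher, while OVOL1, at 10.9 and 12.0 against 18.3 and 19.4, and GRHL1, at 20.5 and 19.5 against 29.5 and 28.2, were lower. CWR-R1ENZR did not share the VIM difference, with 4.49 against 7.56 in CWR-R1, and ZEB1, a mesenchymal repressor, was listed at 0 against 19.9. In CWR-R1ENZR 2 of 15 were at least 2-fold higher, among them ELF3 at 857 against 159, and 4 were lower; in the library labelled VCaPENZR 5 of 12 were higher and 2 lower.

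Between genes, levels were compared per kilobase of exon. SOX4 was highest per length in all 6 groups, at 51.7 in C4-2BENZR against 20.8 in C4-2B, 59.8 in CWR-R1ENZR against 29.9 in CWR-R1, and 100.5 in the library labelled VCaPENZR against 24.8 in VCaP. KLF5 came next in CWR-R1ENZR (56.8), in CWR-R1 (21.5) and in the library labelled VCaPENZR (35.0), REST in C4-2BENZR (9.34) and in C4-2B (8.22), and SOX9 in VCaP (15.0). TRPS1, of the longest exonic sequence (10233 bases), was 20.7 per kilobase in CWR-R1ENZR against 4.78 in CWR-R1.

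Among the 6 genes measured in every library, KLF5 and REST varied most alike over the 8 libraries (Pearson r = 0.966 of log2 levels), followed by TRPS1 with KLF5 (0.944) and TRPS1 with REST (0.909). SOX9 and MYB varied in opposite directions (-0.895). These are descriptions over 8 points that share lines and include the library labelled VCaPENZR. Of 11533 expressed genes, those most like TRPS1 were GSDMB (0.986) and ANKRD36B (0.984), those most like KLF5 were FAM214B (0.988) and ZBTB41 (0.987), and those most like SOX9 were SLC39A1 (0.988) and ATP7A (0.987). MYB was closest to ZDHHC12 (0.988) and GOT2 (0.987), REST to RGL3 (0.984) and ATXN2L (0.983), and SOX4 to WASH7P (0.981) and EEPD1 (0.957). ANKRD36B and WASH7P belong to multicopy families whose reads are uncertain.

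Neighbouring genes were checked for the other factors too. Each count in C4-2B stands against 27.8% of all genes called higher and 29.0% lower. Beside SOX4 on chromosome 6, 4 of 8 tested neighbours rose in C4-2BENZR and 2 fell, with ID4, an inhibitor of bHLH factors, at 1.10 and MBOAT1, an acyltransferase, at 1.60 on the log2 scale. Beside SOX9, 5 of 10 rose and 2 fell, all by less than 2-fold. Beside KLF5, 3 of 9 rose and 1 fell, DACH1, a transcriptional repressor, at 1.00, just under 2-fold, and TBC1D4, a regulator of glucose transporter traffic, at -1.30. Beside REST, 2 of 7 rose, EPHA5, an ephrin receptor, by 1.79. Beside SOX2 2 of 7 rose and 1 fell, and beside GATA3 4 of 10 rose and 2 fell. For the 8 genes, 0 to 3 neighbours each were at least 2-fold higher in CWR-R1ENZR and 0 to 2 lower. Over all genes these shares were 9.79% and 10.3%. In the library labelled VCaPENZR 0 to 6 were higher and 1 to 5 lower, against 21.1% and 22.0% over all genes.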

How the data were processed

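DNase-treated total RNA from 8 libraries was sequenced as paired ends, per the labels' protocols. The submitters' processing notes name the build hg19, while aligner and counter were not given in the sources used here. Each of 3 deposited tables holds a signal value per library, plus the authors' signed fold score and p-value columns, which were not used. All deposited signal values (100%, tolerance 0.02 reads) were whole multiples of 1 read, so reads were recovered.

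Differential expression in C4-2B used limma 3.58.1 in R 4.3.3 (trend, two-sided, Benjamini-Hochberg, threshold 0.05) on log2(value + 1), keeping genes that reached 1 in 2 or more libraries. On recovered reads, edgeR 4.0.16 called 3767 genes higher and 3755 lower; DESeq2 1.42.0 was also run. With 1 library per group, 2-fold differences of log2(value + 1) were counted without a test where either library reached 5. That scale understates the change of low genes. The common scale is CPM with TMM-scaled library sizes over shared genes. Overlap there is marked by 95% Poisson intervals, joined over replicates in C4-2B, which cover counting error only. Exonic lengths come from GENCODE on GRCh38, neighbour order from RefSeq (GRCh38.p14), used for names only.

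The members and the lists were chosen with earlier results of these data known. Named were all members, in each list up to 3 highest and 3 lowest called in C4-2B and up to 2 each way in the other tables, the 2 genes most like each member, and called neighbours at least 2-fold apart; EIF3H, RAD21, UTP23, DACH1, SLC2A12, HBS1L, GRHL2, ELF3 in C4-2B, SOX7, CD68, LUM, and list genes repeated in a further table, were named after their values were seen. Some genes that this rule names are not reported here. The p-values behind the calls measure the spread between these libraries, which may be technical. Alternatives were other scalings, tests, filters, pseudocounts and thresholds, a replicate block and each library left out. The limma procedure was also run on simulated data, with far fewer differing genes than were called here, so nothing is read from that run.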

Additional observations from a re-analysis of the deposited data

Results flagged for a closer look

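Differences of opposite sign between line pairs stood out for 2 genes. SOX2 differed by -2.50 on the log2(level + 1) scale, resistant minus sensitive, in CWR-R1ENZR against CWR-R1 and by 3.17 in the library labelled VCaPENZR against VCaP. MYB differed by -1.09 in C4-2BENZR against C4-2B and by -1.47 in CWR-R1ENZR against CWR-R1, but by 0.80 in the library labelled VCaPENZR against VCaP. The difference between the pairs was not tested for either gene, since the CWR-R1 and VCaP pairs have 1 library per group. Both opposite values rest on the library labelled VCaPENZR, in which ERG had 3 reads; in C4-2B and CWR-R1 alone, MYB was lower in the resistant line in both.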

How the results depend on the processing

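No log2 difference of the 8 genes changed sign under any alternative run. In C4-2B, 3691 genes were called higher and 3856 lower in C4-2BENZR. With total reads alone as the scaling these were 4757 and 2923, and the median gene lay at 0.10 in place of -0.00075; with DESeq2 they were 3151 and 3227. Leaving out each library in turn gave 2694 to 3465 higher and 3254 to 3373 lower. With a replicate block 4036 were higher and 4212 lower. In this balanced design a block cannot change the differences themselves, so it is no check on those of the 6 genes. The labels do not say what libraries of equal replicate number share. Their deviations correlated at 0.05 over 13280 genes, and 2 libraries per group cannot settle whether they were paired. All counts of genes over whole tables stayed within 1.5 times their value. Of the further alternative values 599 counted as unchanged and 38 moved (most in list counts of 5 or fewer, or with a pseudocount of 5). A further 3 newly passed the threshold, all for REST, whose calls are a description only. Unchanged means the same sign and call in C4-2B, a list count within 1.5 times, or a single-library ratio within the width of its counting interval. Sizes could still shift: in C4-2B, TRPS1 ran from 2.50 to 4.48 and SOX9 from 0.86 to 1.48 on the log2 scale. Few reads limit the precision of some values: 2 reads of TRPS1 and SOX2 in VCaP and 4 of GATA3 in CWR-R1 leave ratios known only within wide intervals.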
